A study of Rattus norvegicus with 12 samples.

Results

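Gene expression in the clear lens of the Sprague Dawley (SD) rat was followed from 4 to 10 weeks of age. The data were 3 arrays, 1 each of a male SD lens at 4, 8 and 10 weeks, all without cataracts, so the 8-week and 10-week arrays (2 arrays) were set against a single 4-week array. The series holds 12 arrays. The other 9 are of male ICR rats, a strain with hereditary cataract, in triplicate at each age, with clear lenses at 4 weeks and cortical opacity at 8 and 10 weeks. In the study the SD arrays served to set aside the genes that change as any rat grows. How many lenses or animals went into an array is not given in the sources used here, and the labels state only that the lens was taken out of culture medium before RNA was extracted. The signals are log2 values from Robust Multi-array Average (RMA) processing of the GeneChip Rat Gene 2.0 ST array, on which a feature, the probe set, reads the transcripts of a gene in total RNA.

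Of 18166 genes with a feature of 1 gene symbol, 3602 had a signal of 5 or more, the study's minimum, on at least 1 of the 3 SD arrays. These are the genes described here. Just inside the minimum lay Glb1 and Uvrag, and just outside it Ctps1-ps2 and Camsap1. Among the 3602, 2787 reached 5 on all 3 arrays, 226 reached it only at 4 weeks, and 263 reached it at 8 or 10 weeks but not at 4 weeks. A gene that reached 5 only at 1 end of the series had to differ with age, so the counts below describe the SD arrays and no more. With 1 array per age no change with age in the SD lens could be tested, and a change is called only by the study's folds. An increase had to be more than 1.5-fold (0.58 on the log2 scale), and a decrease had to be below -1.17 on the log2 scale. By the mean of both later arrays, Sertad2 (0.60) lay just inside and Mid2 (0.57) just outside the limit for an increase, as did Klf6 (-1.18) and Rcan1 (-1.17) for a decrease.

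The lens grows throughout life. Epithelial cells at the equator divide, elongate into fibres, fill with crystallins and lose their organelles, and nothing is shed. Young lenses add fibres faster than older ones. The fibre proteins are the crystallins, the membrane proteins Mip and Lim2 and the beaded filament protein Bfsp1, whereas Pax6 and Foxe3 are transcription factors of the epithelium. Freshly dissected tissue is also known to switch on immediate early genes, such as Fos and Egr1, together with feedback regulators and cytokines within minutes, and these genes were kept in lists of their own, called the handling response lists.

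The SD arrays were those of lens. The 7 lens markers with a feature (Cryab, Crygs, Mip, Lim2, Bfsp1, Pax6 and Foxe3) were at 5 or more on every SD array, with a mean signal of 10.61 at 4 weeks, 10.51 at 8 weeks and 10.30 at 10 weeks. None of the markers of muscle, retina, blood vessel, or blood and macrophages reached 5 on an SD array, and of the cornea and conjunctiva list only Krt13, an epithelial keratin, did. Markers of the ciliary body, iris and zonule were present and moved between arrays, as described below. Across the 3602 genes the SD arrays correlated with each other at Pearson's r of 0.953 to 0.971, and with the ICR arrays of their own age at 0.875 to 0.964. ICR replicate 1 stood apart at every age, with r of 0.861 to 0.901 to replicates 2 and 3, against 0.941 to 0.974 between those, and with 3531 to 3932 genes at 5 or more against 3115 to 3270. Genes are not independent replicates, and these values are a description.

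Few genes were past a fold. At 8 weeks against 4 weeks, 39 genes were more than 1.5-fold higher (1.08% of those measured) and 31 were lower past the fold for a decrease (0.861%). At 10 weeks, 39 were higher (1.08%) and 37 lower (1.03%) than at 4 weeks. By the mean of both arrays against the 4-week array, 22 genes were higher (0.611%) and 34 lower (0.944%), and 8 and 24 genes passed the fold on both arrays. The whole table also leaned downwards. The median change of the 3602 genes was -0.07 on the log2 scale at 8 weeks, -0.20 at 10 weeks and -0.13 for their mean, with 2627 genes below 0, whereas the median over all 18166 genes was 0.00 at 10 weeks. When the arrays were quantile normalized again the lean was gone, with a median of 0.01, and the split became 64 higher and 30 lower. Cyclic loess gave 55 higher and 32 lower, and subtraction of the median change gave 56 higher and 31 lower. Small changes below are therefore best read against -0.13, and which way a small change points depends on this choice. Fewer cells of a type and less RNA per cell cannot be told apart in these whole-lens samples.

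**Figure D1:**
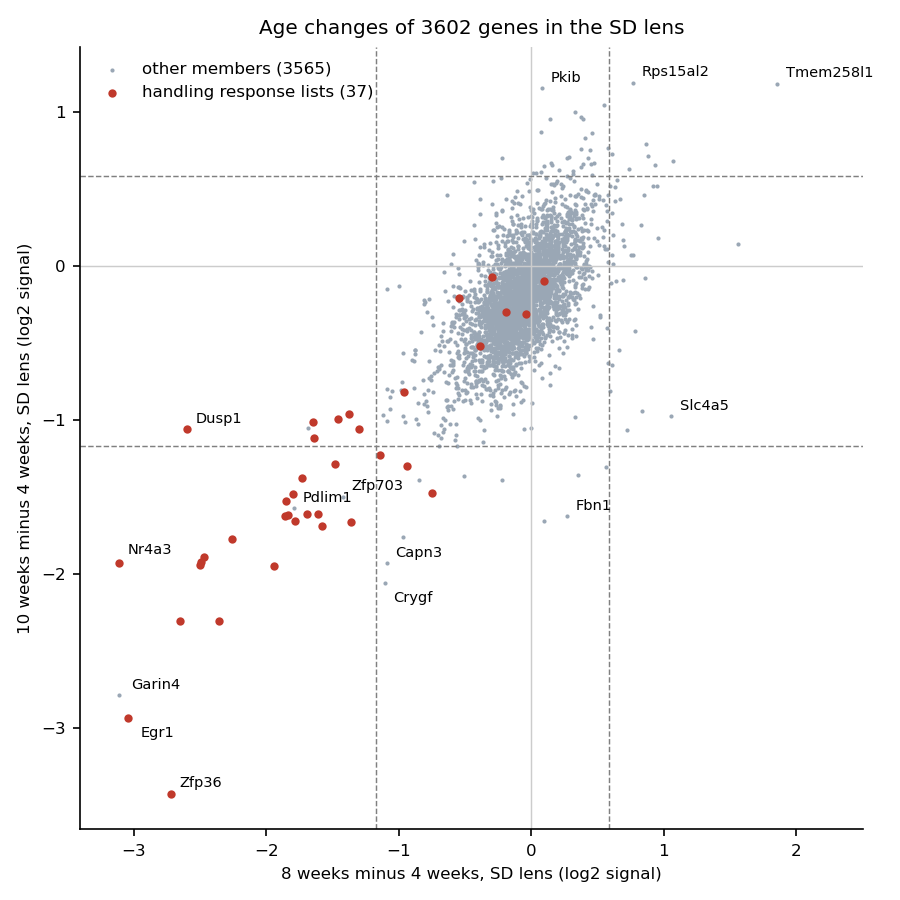
Each point is 1 of 3602 genes in the SD lens, with the change at 8 weeks on the horizontal axis and at 10 weeks on the vertical axis, both against the 4-week array in log2 signal. Red points are the 37 genes of the handling response lists, dashed lines mark the folds at 0.58 and -1.17, and most red points lie in the lower left, with Garin4, Pdlim1, Zfp703, Crygf and Capn3 the named grey points there.

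The lower genes were for the most part handling response genes. They made up 27 of the 34 lower genes and none of the 22 higher ones. Of 76 genes in these lists 67 had a feature and 37 reached 5, 20 of them only on the 4-week array. Without the minimum signal, 31 of the 67 were past the fold for a decrease (46.3%, against 0.336% of all 18166 genes) and the median change was -1.11.

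Promoters of 4 of these genes are shown because their letters carry sites of the transcription factors that are known to drive rapid induction. They are the 300 bases around the start of the gene in RefSeq (build GRCr8), and capitals mark the matches.
Egr1 (chr18:26736828-26737127, plus strand): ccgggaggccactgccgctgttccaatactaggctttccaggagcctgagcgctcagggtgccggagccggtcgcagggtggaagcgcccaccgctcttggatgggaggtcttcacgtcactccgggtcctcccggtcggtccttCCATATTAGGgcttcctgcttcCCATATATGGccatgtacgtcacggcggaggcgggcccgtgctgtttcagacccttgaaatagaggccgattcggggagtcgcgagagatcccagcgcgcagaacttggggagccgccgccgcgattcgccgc
Zfp36 (chr1:92799059-92799358, minus strand): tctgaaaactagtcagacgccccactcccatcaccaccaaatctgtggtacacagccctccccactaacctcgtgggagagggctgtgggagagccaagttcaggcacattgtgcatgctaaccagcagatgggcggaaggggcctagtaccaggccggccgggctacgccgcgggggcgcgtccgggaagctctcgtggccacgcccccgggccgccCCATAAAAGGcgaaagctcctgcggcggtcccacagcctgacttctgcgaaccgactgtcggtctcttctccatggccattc
Ccnl1 (chr2:152507419-152507718, minus strand): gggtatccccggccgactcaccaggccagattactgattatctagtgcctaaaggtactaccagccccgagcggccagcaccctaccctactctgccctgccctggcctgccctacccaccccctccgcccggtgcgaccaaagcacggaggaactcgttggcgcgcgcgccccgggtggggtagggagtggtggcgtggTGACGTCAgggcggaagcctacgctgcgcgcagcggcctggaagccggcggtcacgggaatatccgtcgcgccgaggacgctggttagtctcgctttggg
Cxcl10 (chr14:15988816-15989115, plus strand): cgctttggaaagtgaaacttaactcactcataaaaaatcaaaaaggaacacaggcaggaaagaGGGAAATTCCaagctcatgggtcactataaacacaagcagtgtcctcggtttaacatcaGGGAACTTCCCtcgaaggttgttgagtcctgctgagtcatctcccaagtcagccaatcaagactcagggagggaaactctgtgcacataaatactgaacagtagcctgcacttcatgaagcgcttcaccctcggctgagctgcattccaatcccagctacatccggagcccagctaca
In the promoters of Egr1 and Zfp36 the capitals are CArG boxes, the site of serum response factor, with 2 matches in Egr1 and 1 in Zfp36. In Ccnl1 they are the cAMP response element TGACGTCA, and in Cxcl10 they are NF-kB sites, where the longer run is a pair of overlapping matches. RefSeq promoters were at hand for 21 of the 27 lower handling genes. Searched on both strands, the CArG box was in 4 of the 21 (Egr1, Zfp36, Klf6 and Rnd3) and in 1.64% of all 27457 promoters. The element TGACGTCA was in 4 of the 21 (Ccnl1, Ier2, Dusp1 and Ppp1r15a) and in 1.89% of all promoters. NF-kB sites stood in 7 of the 21 (Nr4a1, Irf1, Cxcl1, Cxcl10, Nfkbia, Nfkbiz and Socs3) and in 7.57% of all promoters. A match is a stretch of letters and not a shown binding site. The handling lists were made of genes already known for rapid induction or NF-kB feedback. A share above that of all promoters can follow from that choice and is no result of these arrays.

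Of 23 immediate early transcription factors with a feature, 12 were past the fold without the minimum signal, with a median change of -1.18, and 10 of these were among the 13 members, 6 of which reached 5 only at 4 weeks. Egr1, a zinc finger factor induced by growth factors and stress, had a signal of 8.43 at 4 weeks, 5.39 at 8 weeks and 5.50 at 10 weeks, a 7.93-fold lower level by the mean. Atf3, a stress-induced bZIP factor, had 8.15, 5.66 and 6.21 at the same ages. Nr4a3, an orphan nuclear receptor of the immediate early class, had 5.46 at 4 weeks, 2.35 at 8 weeks and 3.53 at 10 weeks. In each case the 4-week array was the highest, and for Nr4a3 the 10-week array also stood 1.18 above the 8-week array. Fos, a subunit of AP-1, had 7.80, 6.08 and 6.43, and its partner Jund was near level at 7.24, 6.94 and 7.17.

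Of 26 feedback and growth arrest genes with a feature, 11 were past the fold, with a median of -1.11. The members numbered 14, and 7 of them reached 5 only at 4 weeks. Zfp36, which binds AU-rich elements and hastens the decay of cytokine mRNAs, had 7.09 at 4 weeks, 4.37 at 8 weeks and 3.66 at 10 weeks. By its mean it was 8.41-fold lower, the largest decrease in the SD lens. Ccnl1, a cyclin with a role in splicing, had 6.89, 4.40 and 4.97. Dusp1, a phosphatase that switches off MAP kinases, had 7.46 at 4 weeks, 4.86 at 8 weeks and 6.39 at 10 weeks, so the 10-week array took back part of the difference. Sgk1 and Gadd45a, a kinase and a growth arrest gene on the same list, had 5.65, 5.75 and 5.55, and 7.65, 7.61 and 7.34.

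Of 14 cytokine and NF-kB feedback genes with a feature, 6 were past the fold, and the median over the 14 was -0.42. These 6 are the members, and each reached 5 only on the 4-week array, so a lower later signal was built into the choice. The chemokine Ccl2 had 5.63 at 4 weeks, 2.98 at 8 weeks and 3.33 at 10 weeks. Nfkbiz, an NF-kB cofactor, had 5.61, 3.26 and 3.30. Nfkbia, the inhibitor that holds NF-kB in the cytoplasm, had 6.01, 4.07 and 4.06. In all 3 the later arrays lay close together. The metallothioneins Mt1 and Mt2A, which bind zinc and copper, had 6.16, 4.52 and 5.04, and 5.85, 4.37 and 4.56, while the chaperone genes Dnajb1 and Hsph1 changed by -0.25 and -0.45.

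In ICR lenses the same genes differed widely between arrays of 1 age. The mean signal of the 67 handling genes was 5.12 on the SD array at 4 weeks, 4.08 at 8 weeks and 4.18 at 10 weeks. On the ICR arrays at 4 weeks it was 4.26, 5.28 and 3.88 for replicates 1, 2 and 3, and it spanned 3.87 to 4.49 over the 6 later ICR arrays. ICR replicate 2 was the highest of the 4-week ICR arrays for 30 of the 37 members. Egr1 shows this, since its signal was 8.43 in the SD lens at 4 weeks and 6.10, 8.79 and 4.23 in the ICR lenses of that age. Of the 27 lower handling genes, 3 (Zfp36, Cxcl10 and Nfkbia) changed on both SD arrays by more than the widest difference between same-age ICR arrays. Of all members 4.36% did so. The high ICR replicate 2 at 4 weeks is part of that comparison. Whether handling, age or another property of the single 4-week SD lens set these signals cannot be told apart.

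**Figure D2:**
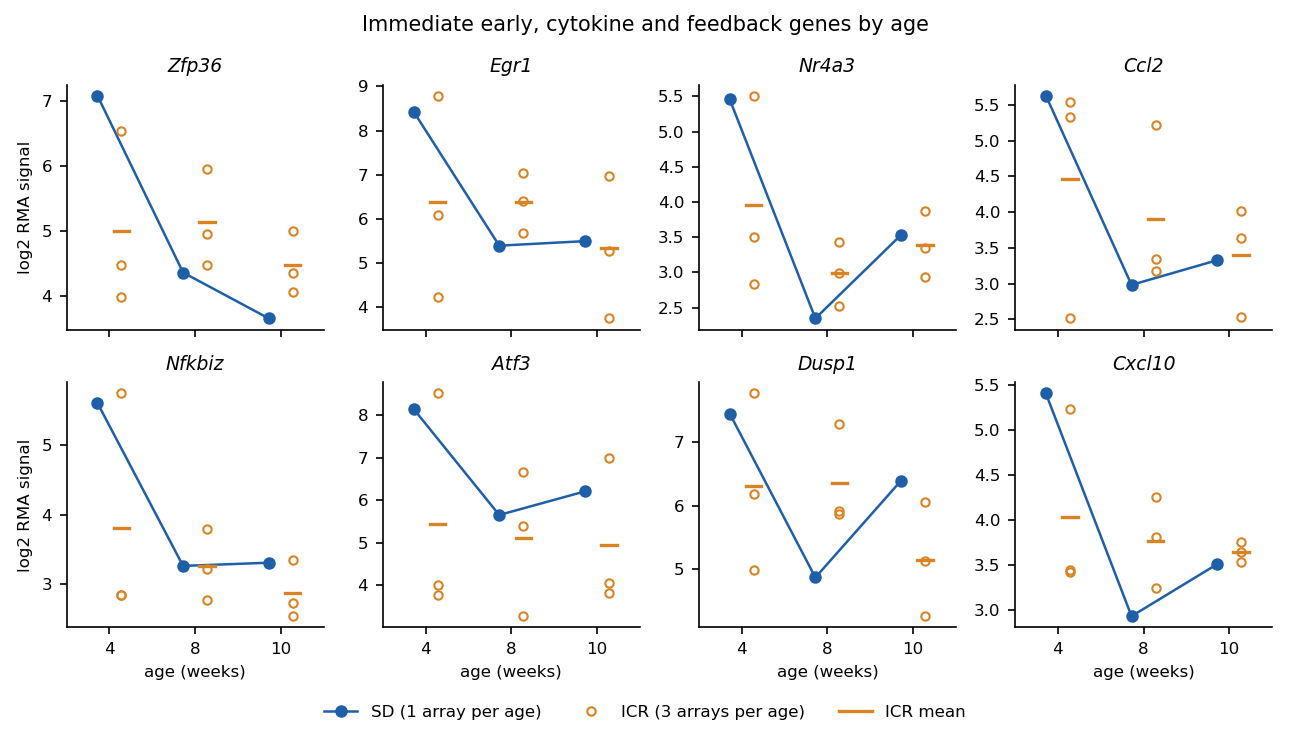
Log2 RMA signal against age in weeks for 8 handling response genes, with each SD array as a filled blue point joined by a line and each ICR array as an open orange circle with a bar at the mean of 3. In all 8 panels the SD point at 4 weeks is the highest of the 3 SD points, and at 4 weeks the ICR circles are spread widely, by 4.56 for Egr1 and 4.75 for Atf3.

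Outside these lists 7 genes were past the fold downwards, and 3 of them on both arrays. Pdlim1, a PDZ and LIM domain protein that binds alpha-actinin on stress fibres, had 6.92 at 4 weeks, 5.13 at 8 weeks and 5.35 at 10 weeks, a 3.20-fold lower level. Zfp703, a transcriptional corepressor, had 6.01, 4.59 and 4.52 and was 2.75-fold lower. Garin4 had 5.77 at 4 weeks, 2.66 at 8 weeks and 2.98 at 10 weeks. In RefSeq its neighbours on the chromosome are Atf3 and Nenf, and its signal in the ICR lenses at 4 weeks was 2.46, 6.18 and 2.37, with Atf3 at 4.01, 8.52 and 3.77 there. Wdr86, a WD repeat protein, was past the fold by the mean and at 8 weeks, with 5.61, 3.92 and 4.56. The microRNA gene Mir466d was past it by the mean and at 10 weeks, with 6.21, 5.24 and 4.46. The remaining members of the 7 were Crygf and Capn3, genes of the young fibre.

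Gamma crystallins differed among themselves. Crygf, a crystallin of the early fibre and the lens nucleus, had 10.59 at 4 weeks, 9.49 at 8 weeks and 8.53 at 10 weeks and changed by -1.58 by the mean. Cryge had 11.48, 10.83 and 10.43, and Crygn had 10.40, 9.84 and 9.23. Each stepped down at both ages. Crygb went the same way by less, at 11.02, 10.78 and 10.60. By contrast Crygc (12.44, 12.40 and 12.31), Crygd (12.50, 12.41 and 12.45) and Crygs (11.91, 11.98 and 11.96), the crystallin of the mature cortex, differed by 0.13 or less from the 4-week array. Of the 7 members 1 was past the fold. The list median was -0.33 as deposited, -0.07 after quantile normalization and -0.17 after cyclic loess. Gamma crystallin genes are close copies of each other, so probes can share signal between them.

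Of 8 alpha and beta crystallins on the list, 3 had a feature, and none was past a fold. Cryab, a small heat shock protein, had 12.82 at 4 weeks, 12.75 at 8 weeks and 12.70 at 10 weeks. Cryba1 had 13.03, 12.96 and 12.92, and Cryba2 had 12.35, 12.38 and 12.22. Their changes of -0.10, -0.08 and -0.05 turned to 0.03, 0.04 and 0.08 after cyclic loess.

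The ICR arrays, whose ages are the same and whose samples are separate, can be set beside these values. Crygf changed by -1.58 in SD and -1.59 in ICR lenses, Cryge by -0.86 and -1.07, Crygn by -0.86 and -1.31, and Crygb by -0.33 and -0.12. For Crygf and Cryge both SD changes were larger than any same-age ICR difference (1.04 and 0.37).

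**Figure D3:**
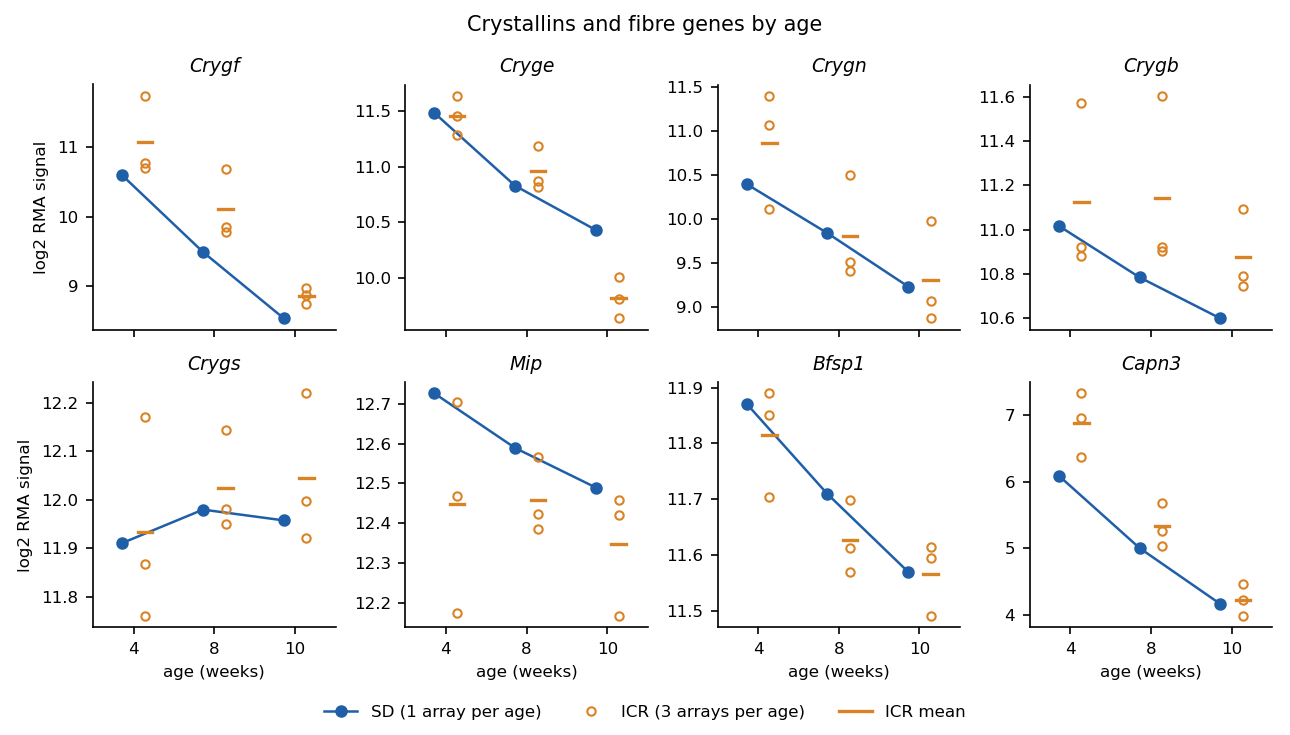
Log2 RMA signal against age in weeks for crystallin, membrane, filament and protease genes of the fibre, with each SD array as a filled blue point and each ICR array as an open orange circle with a bar at the mean of 3. Crygf, Cryge, Crygn and Capn3 step down from age to age in SD lenses, whereas Crygs stays within 11.91 to 11.98.

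Of the genes that break down proteins and organelles in the maturing fibre, Capn3 (the lens calpain) alone was past the fold, 1 of 13 members. It had 6.092 at 4 weeks, 5.003 at 8 weeks and 4.161 at 10 weeks in SD, a change of -1.51, and -2.11 in ICR lenses. Ube2o, a ubiquitin ligase that clears proteins from differentiating cells, had 7.74, 7.28 and 7.09. Trex1, a DNA exonuclease, had 5.63, 5.36 and 4.75. Dnase2b, the nuclease that degrades DNA in lens fibres, was level in SD at 6.82, 6.86 and 6.78, with a change of -0.00, where its ICR change was -0.98.

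None of the 18 fibre structure members was past a fold. Mip had 12.73, 12.59 and 12.49, Lim2 had 11.55, 11.43 and 11.10, and Bfsp1 had 11.87, 11.71 and 11.57. The largest change was that of Gje1, a lens connexin, at 5.01, 4.13 and 4.46. Lgsn, a glutamine synthetase relative of lens fibres, had 11.39 at 4 weeks, 11.54 at 8 weeks and 11.62 at 10 weeks, and Grifin, a lens galectin, had 11.84, 11.99 and 11.96. The median of the list was -0.21, close to that of all members.

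No regulator of the lens was past a fold. Of 15 transcription factors none was past a fold, and their median of -0.08 turned to 0.08 after quantile normalization and 0.06 after cyclic loess. Maf, which activates crystallin genes, had 10.22, 10.03 and 9.70. Foxe3, which keeps the epithelium dividing, had 6.61, 6.42 and 5.83. Meis2 had 6.65, 6.38 and 5.85, and Hopx, a homeodomain-only protein, had 7.10, 7.53 and 7.58. The RNA-binding proteins had a median of -0.29 (10 members, none past a fold). Rbm24, needed for lens development in fish and mice, had 8.25 at 4 weeks and 7.69 at both 8 and 10 weeks, and Igf2bp2 had 7.59, 7.50 and 6.78. The epithelial list (17 members, median -0.19) had no member past a fold either.

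Growth and matrix genes gave 1 member past the fold. Loxl2, a lysyl oxidase that cross-links collagen, had 4.28 at 4 weeks, 5.21 at 8 weeks and 4.94 at 10 weeks. Among other capsule genes Sparc had 9.55, 9.73 and 9.69, Col4a2 had 7.31, 7.15 and 6.84, and Lamc1 had 5.31, 4.93 and 4.63. Only 4 of 37 cell cycle genes with a feature reached 5, namely Dut, Ccnd2, Cdkn1b and Cdkn1c. Ccnd2, a G1 cyclin, had 6.37, 6.24 and 5.55, and the inhibitor Cdkn1b had 6.43, 6.61 and 6.69. Of 3 imprinted growth genes at 5 or more (Cdkn1c, Nnat and Igf2r), none was past a fold. Of the 16 growth factor genes the largest changes were those of the BMP antagonist Chrdl1 (6.15, 6.75 and 6.67) and the neurotrophin receptor Ngfr (6.24, 6.56 and 6.86), both short of 1.5-fold by the mean.

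In the glycolysis, fatty acid, cholesterol and antioxidant lists no member was past a fold. Of all members 72.9% were below 0, which is the share to read the counts of each list against. Glycolysis and polyol genes had a median of -0.39 (12 members, 11 below 0), and it was -0.23 and -0.21 after quantile normalization and cyclic loess. Hk2, the inducible hexokinase, had 6.01, 5.38 and 5.25. Akr1b1, aldose reductase, had 7.66, 7.09 and 6.87, and Pgk1 had 8.58, 8.28 and 7.68. Ldha broke the pattern, at 6.25 on the 4-week array, 5.16 on the 8-week array and 6.10 on the 10-week array. Fatty acid genes had a median of -0.28 (11 of 14 below 0), with Me1, the malic enzyme that makes NADPH, at 5.80, 5.01 and 4.89. In the other direction Thrsp, a lipogenic gene, had 5.25, 5.70 and 5.92. Cholesterol genes had a median of -0.16 and 0 of 11 past a fold, and after quantile normalization and cyclic loess the median was 0.02 and 0.01. Antioxidant genes (16 members, 12 below 0, median -0.20) included the glutathione synthesis gene Gclc at 7.13, 6.70 and 6.48 and Hmox1, heme oxygenase, at 6.76, 6.06 and 6.25.

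The list of chaperone and unfolded protein response genes had a median of -0.31 over 15 members, which was -0.05 by the 8-week array alone and -0.40 by the 10-week array alone. Mthfd2, a mitochondrial folate enzyme that is a target of Atf4, had 6.17 at 4 weeks, 5.32 at 8 weeks and 4.78 at 10 weeks, just short of the fold at 2.17. Atf4 itself had 8.58, 8.35 and 7.85, and the chaperone Hspa5 had 7.25, 7.05 and 6.73. Of 10 water and ion transport members Fxyd6, a regulator of the sodium pump, changed most, at 5.74, 4.92 and 4.91. Among the other housekeeping families, ribosomal protein genes (median 0.00, 71 members) and respiratory chain genes (-0.09, 54 members) fell less than the whole table at -0.13. Proteasome genes (-0.20, 25 of 31 below 0) and translation initiation factors (-0.17, 28 of 31 below 0) fell somewhat more.

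Genes that the study singled out in ICR lenses were set beside these. They were chosen on arrays of this series, so their direction in ICR is no independent evidence. Ass1, which makes argininosuccinate for arginine synthesis, had 7.32 at 4 weeks, 8.27 at 8 weeks and 7.84 at 10 weeks in SD, a 1.66-fold higher level, with a change of 0.73 in SD and 1.91 in ICR lenses. Dhrs3, a retinal reductase, had 4.53, 4.90 and 5.17 and Cd44, the hyaluronan receptor, 4.65, 4.97 and 5.20. The list median was 0.04 in SD and 0.65 in ICR lenses over 9 members, of which 1 (Ass1) was past the fold in SD.

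The 22 higher genes were mostly faint. Of these, 16 were below 5 at 4 weeks, as were 7 of the 8 that passed the fold on both arrays. Tmem258l1 gave the largest increase, with 3.16 at 4 weeks, 5.01 at 8 weeks and 4.34 at 10 weeks, 2.87-fold by the mean. Rps15al2, a ribosomal protein gene copy, had 4.24, 5.01 and 5.43. Sh3glb2, an endophilin of membrane curvature, had 5.20, 6.08 and 5.92. Castor2, a relative of an arginine sensor of mTORC1, had 4.43, 5.04 and 5.15. Serpinb6a, a serine protease inhibitor, had 3.99, 5.06 and 4.68, and the cytochrome P450 Cyp2b15 had 4.30, 5.16 and 5.09. The SD signal at 4 weeks lay below all 3 ICR arrays of that age for 14 of the 22, against 21.6% of all members. It lay above all 3 for 15 of the 34 lower genes, against 20.7% of all members. Both sets were chosen with the 4-week signal, so these counts are a description. Loxl2, for example, had 4.28 in SD at 4 weeks and 4.89 to 5.25 in ICR lenses. In 5 of the 22 (Cyp2b15, Sh3glb2, Loxl2, Plekha2 and Castor2) both SD changes were larger than any same-age ICR difference.

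The microRNA genes at 5 or more numbered 14, and Mir324 and Mir466d were past a fold, in opposite directions. The array reads total RNA across the hairpin, so a signal does not measure the mature strand. Mature sequences of both genes are given here (RefSeq, build GRCr8), with the seed at bases 2 to 8 in capitals.
rno-miR-324-5p (chr10:55233378-55233400, plus strand): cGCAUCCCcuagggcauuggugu
rno-miR-324-3p (chr10:55233413-55233434, plus strand): cCACUGCCccaggugcugcugg
rno-miR-466d (chr17:72913060-72913081, minus strand): aUGUGUGUguauguucuuuugu
Mir324 had 4.39 at 4 weeks, 5.13 at 8 weeks and 5.01 at 10 weeks. Mir466d had 6.21, 5.24 and 4.46, and its ICR signals were spread by 1.31 within an age. The seeds differ, and among the 23 mature sequences matched to 13 of the 14 genes no seed was shared between genes. Of the other 12 genes, 10 were above their 4-week level by the mean, such as Mir138-2 at 5.89, 6.18 and 6.60. Of all members 72.9% were below 0. The shift was not particular to microRNA genes, whose median was 0.22. Olfactory and vomeronasal receptor genes had a median of 0.19, with 7 of 9 members above 0. Mir351 (4.73, 4.90 and 5.25) and Mir3574 (4.83, 4.84 and 5.20) reached 5 only at 10 weeks. The cause was not tested.

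**Figure D4:**
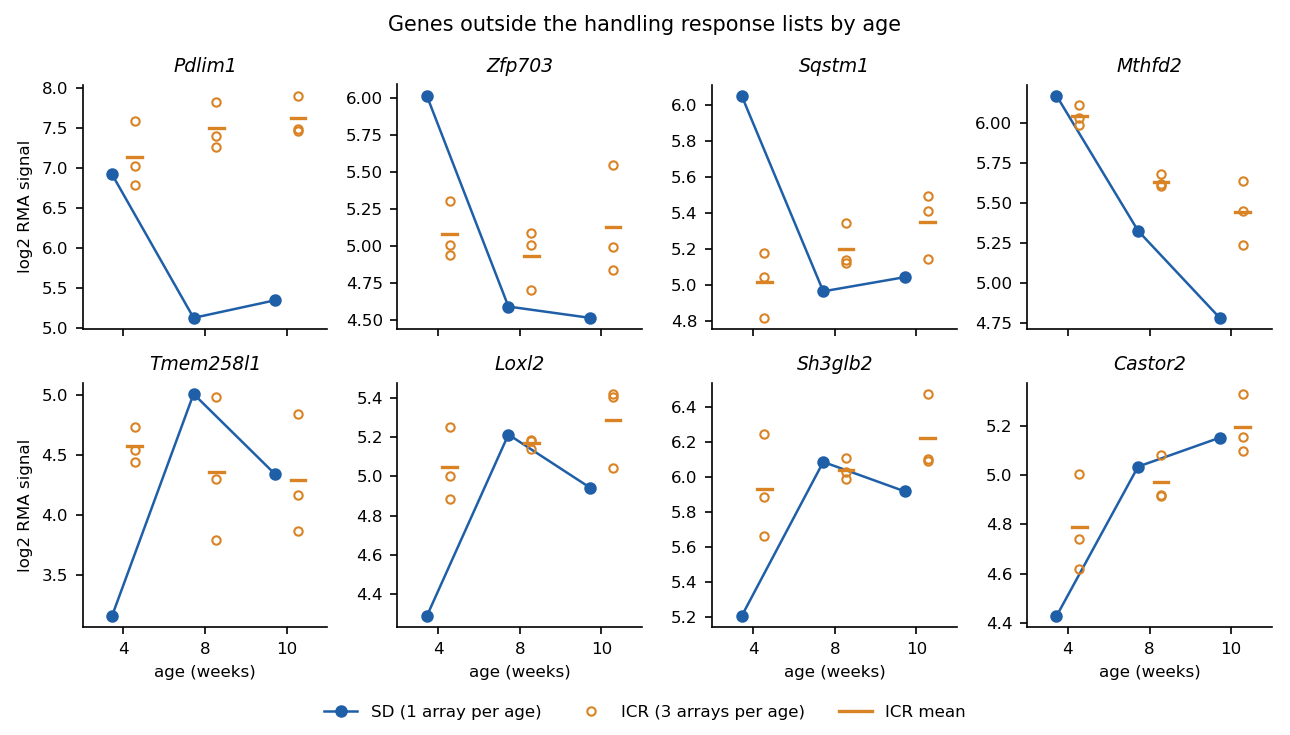
Log2 RMA signal against age in weeks for 4 genes with lower (top row) and 4 with higher (bottom row) later SD signals outside the handling response lists, with each SD array as a filled blue point and each ICR array as an open orange circle with a bar at the mean of 3. The later SD points of Pdlim1 (5.13 and 5.35) lie below every ICR array, and the 4-week SD points of Tmem258l1, Loxl2 and Sh3glb2 lie below the ICR arrays of that age.

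At 10 weeks against 8 weeks, 32 genes were more than 1.5-fold higher (0.888%) and 14 were past the fold for a decrease (0.389%). Of the 14, 8 stood on the list of ciliary body, iris and zonule markers, which holds 11 of the 3602 members (0.305%). Among these 8, Slc6a13, Fmod and Rin2 reached 5 only on the 8-week array. For them a lower 10-week signal was built into the choice, and the count is a description. Fbn1, the fibrillin of zonular fibres, had 6.31 at 4 weeks, 6.58 at 8 weeks and 4.68 at 10 weeks. Slc4a5, a bicarbonate transporter of ciliary epithelium, had 5.40, 6.45 and 4.42. Optc, the glycoprotein opticin, had 6.90, 6.99 and 5.24, and the anion exchanger Slc26a4 had 5.36, 5.72 and 4.01. The 8-week array was the highest and the 10-week array the lowest in each. Over all 30 genes of the list the mean signal was 4.20, 4.58 and 3.63 at 4, 8 and 10 weeks, with 8, 10 and 4 genes at 5 or more. Ptgds, a prostaglandin synthase with the highest signal on the list, was near level at 9.40, 9.55 and 9.35. The melanocyte genes Tyr, Tyrp1, Dct, Mlana and Pmel stayed below 5. In ICR lenses the list mean was 3.93 to 5.06 at 4 weeks, 3.74 to 4.21 at 8 weeks and 3.46 to 3.75 at 10 weeks. The 6 genes outside the list were highest at 8 weeks, as were 30.3% of all members. They were chosen for a drop from 8 to 10 weeks, which favours a high 8-week signal. Iqgap2, a scaffold protein, had 4.96, 5.67 and 3.89, and Lpl, lipoprotein lipase, had 4.63, 5.46 and 3.69. Both reached 5 only at 8 weeks. Without the handling and marker lists the counts of later against 4-week arrays were 22 higher and 7 lower. The part that adhering tissue has in other genes that peaked at 8 weeks was not tested.

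**Figure D5:**
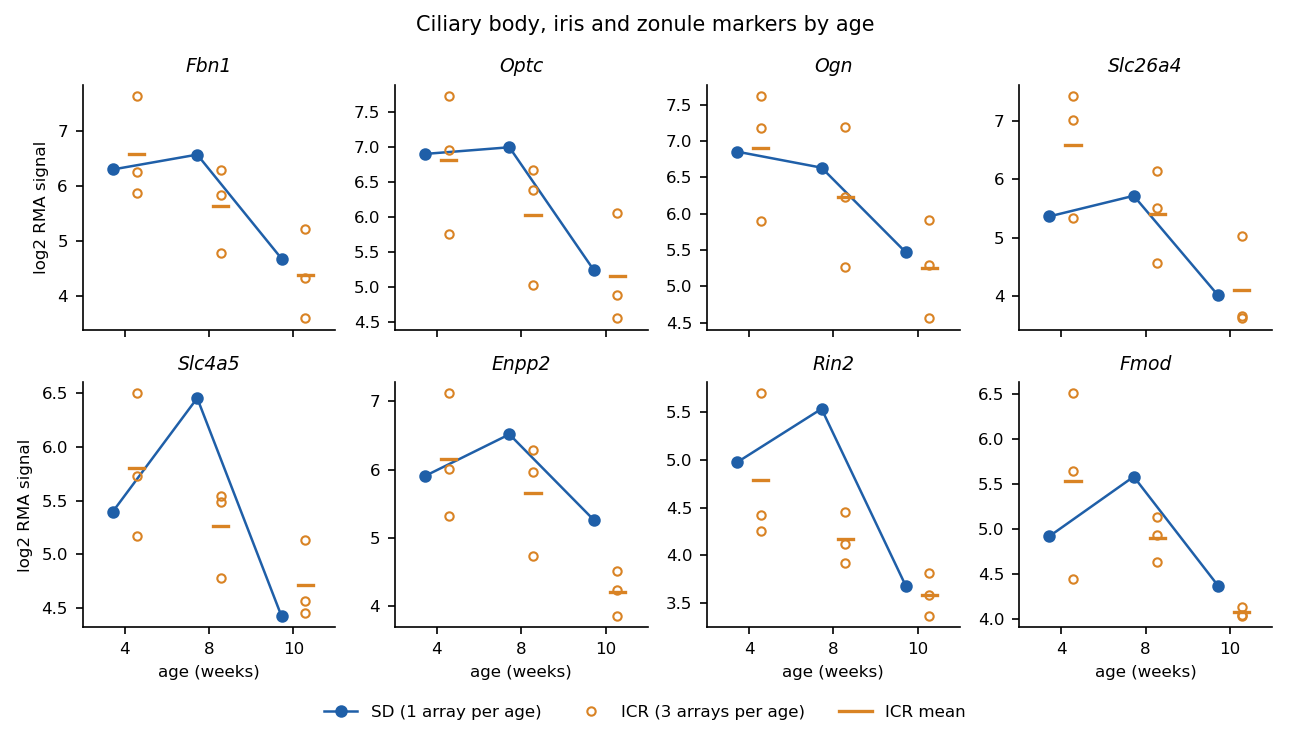
Log2 RMA signal against age in weeks for 8 markers of the ciliary body, iris and zonule, with each SD array as a filled blue point and each ICR array as an open orange circle with a bar at the mean of 3. The SD points at 10 weeks are the lowest of the 3 in all panels, as for Fbn1 at 4.68 against 6.58 at 8 weeks.

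Higher at 10 than at 8 weeks were Dusp1 and Nr4a3, both handling genes, and Pkib, an inhibitor of protein kinase A. Pkib had 6.50 at 4 weeks, 6.58 at 8 weeks and 7.65 at 10 weeks. The chromatin protein copy Cbx3l1 had 5.10, 4.46 and 5.56, the Ras relative Rasl10b 4.71, 4.27 and 5.25, the keratin-associated gene Krtap3-1 4.45, 4.23 and 5.15, and Casc3 of the exon junction complex 5.35, 4.36 and 5.23. In order of age, 1482 of the 3602 genes were lower at each step (41.1%), 255 higher at each step (7.08%), 1093 were highest at 8 weeks (30.3%) and 772 lowest at 8 weeks (21.4%). These shares include the downward lean of the 10-week array.

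Differences between same-age ICR arrays were set beside the SD changes. ICR replicate 1, which stands apart, was part of the widest such difference for 86.1% of members. Both SD changes had 1 direction and were larger than the widest same-age ICR difference in 157 genes (4.36%), 142 lower and 15 higher, chosen after their values were seen. Without ICR replicate 1 the number was 611 (17.0%), 521 lower and 90 higher. Apart from the genes named above, Sqstm1, the autophagy receptor p62, had 6.05 at 4 weeks, 4.96 at 8 weeks and 5.04 at 10 weeks. P3h2, a collagen prolyl hydroxylase, had 6.27, 5.57 and 5.10. Satb1, a chromatin organizer, had 6.33, 5.60 and 5.24, and Igsf9, an adhesion protein, had 7.73, 7.04 and 6.70. Mid2, a ubiquitin ligase, had 4.65, 5.13 and 5.32. Across all 3602 genes the SD change correlated with the ICR change at Pearson's r of 0.401 (Spearman's rho 0.403), and 68.9% had the same sign. Both strains lean downwards, with medians of -0.13 in SD and -0.08 in ICR.

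Whether the age change differs between SD and ICR lenses could be tested, since ICR arrays give the spread. limma was fitted over all 12 arrays and 4624 genes, with p-values adjusted by the Benjamini-Hochberg method. No gene passed an adjusted p of 0.05 without the replicate block (75 at an unadjusted p under 0.05), and the smallest adjusted p was 0.745. The ICR replicate numbers were taken to pair the arrays, which is an assumption. With them as a block 1 gene passed (0.0216%), with 242 at an unadjusted p under 0.05. That gene was Pdlim1, with a change in SD that was 2.10 lower than in ICR on the log2 scale (estimate -2.10, SE 0.22, adjusted p = 0.00189, and 0.745 without the block). Its SD signals at 8 and 10 weeks were 5.13 and 5.35, against 7.26 to 7.82 and 7.46 to 7.90 in ICR lenses, and the 4-week signals were 6.92 in SD and 6.79 to 7.58 in ICR lenses. The groups overlap at 4 weeks and do not at 8 and 10 weeks. All 6 later ICR arrays were above the 4-week array of their replicate, while both later SD arrays were below theirs. That fit treats the 3 SD arrays as a block too, although nothing pairs them. With the replicate number as a random block and the SD arrays unpaired, no gene passed, and the adjusted p of Pdlim1 was 0.14 (SE 0.32). On the deposited signals the call thus depends on pairing the ICR arrays by number and on giving the SD arrays the spread found within ICR replicates. Without the block it also depends on the normalization, as given below.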

How the data were processed

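Male SD lenses (1 array per age) and male ICR lenses (3 per age) were hybridised to GeneChip Rat Gene 2.0 ST arrays. The deposited values are log2 signals per probe set, which the authors made in R by RMA. The package version, and whether RMA was run on the 12 arrays as a set, is not given in the sources used here. The number of arrays limits the precision.

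Groups came from the sample labels. Of 36685 probe sets, 18511 had 1 symbol, 575 several and 17599 were not listed. Where probe sets shared a symbol (291 genes), that with the highest mean SD signal stood for the gene. Changes are the mean of the 8-week and 10-week signals minus the 4-week signal.

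The difference between strains in age change was fitted with limma 3.58.1 in R 4.3.3. Only the fit without the block was tried on simulated data, so the block fit was not checked in this way. Deviations of same-numbered ICR arrays from their age means correlated at 0.547 to 0.848 in all 9 pairs. Differently numbered arrays were not compared in this way, and replicate 1 stands apart. The check therefore cannot tell whether replicates 2 and 3 are paired. Pearson's r of 8-week ICR replicate 2 was 0.967 to 4-week replicate 3 and 0.947 to 4-week replicate 2. For 10-week replicate 2 it was 0.955 and 0.925. The later arrays of replicate 3 were closest to 4-week replicate 3 (0.978 and 0.968). Pairing the ICR arrays by number is thus an assumption. The SD arrays, which no label pairs, formed a block of their own, with a random block as an alternative. No source states that arrays are separate animals, so p-values measure the spread between these samples.

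Named genes were the 10 largest changes each way past the fold on both SD arrays outside the handling lists, the 6 largest within them, up to 4 per list, the 8 largest each way between 10 and 8 weeks, those past the strain test, the markers and the crystallins. Other named genes were chosen after their values were seen. The members and the 28 lists were chosen with earlier results of these data known, and 8 gene families were added later by symbol. Alternatives covered the filter, normalization, folds, lists, probe sets, block and left-out arrays.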

Additional observations from a re-analysis of the deposited data

Results flagged for a closer look

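Genes were looked at again where both later SD arrays moved one way and all 6 later ICR arrays moved the opposite way, or where the strain test was passed. Each later ICR array was set against the 4-week array of the same replicate number, an assumed pairing. The first pattern held for 4 of 116 named genes, against 104 of 3602 members (2.89%), and apart from Pdlim1 the difference did not pass the test of the strains.

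The SD minus ICR difference in age change was -2.10 on the log2 scale for Pdlim1, the gene that passed limma with the replicate block (adjusted p = 0.00189, but 0.14 with the SD arrays unpaired). It was -1.32 for Bhlhe40, a circadian and stress repressor, whose SD signals were 5.876, 5.240 and 5.005 at 4, 8 and 10 weeks (adjusted p = 0.147 with the block). For Cyp2u1, a fatty acid hydroxylase of the study's list, it was -1.19, with SD signals of 5.48, 5.32 and 5.17. For Cryab it was -0.12, a difference smaller than the 0.37 between same-age ICR arrays. No outlier test was run on groups of 3 arrays or fewer, though ICR replicate 1 stood apart at every age, as described above.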

How the results depend on the processing

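Each age in SD is 1 array, so no setting gives an error for an SD change. The 22 higher genes became 526 with no filter, 6 with a mean signal of 5 or more, 64 after quantile normalization, 55 after cyclic loess, 56 after subtraction of the median change (added after seeing the data), 8 with both arrays past the fold and 1 at the stricter fold for decreases, and leaving out 1 late array gave 39 either way. The 34 lower genes became 61 with no filter, 19 with a mean signal of 5 or more, 160 at 1.5-fold, and 7 without the handling response lists, with or without the marker lists of other tissues. Other settings kept both counts within 1.5 times, and leaving out 1 late array gave 31 to 37 lower genes.

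All 30 named genes past a fold kept their direction when either late SD array was left out and under both normalizations. They were called for a large mean change over both late arrays, and every setting kept the same youngest SD array as baseline. A kept direction was therefore largely built into the choice and is no test of these changes. Of 464 values for 116 named genes, 389 stayed within 1 ICR standard deviation and 27 changed sign, and of 96 list medians 17 changed sign. Small shifts of lists have no settled direction.

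The strain test called 0 genes, 1 with the replicate block, and 1 after quantile normalization. In each case the gene was Pdlim1 (adjusted p = 0.0109 after quantile normalization without the block). The test called 0 with a variance trend, no filter or cyclic loess (adjusted p = 0.0664 for Pdlim1). It also called 0 with any other array than the SD 4-week one left out. With the block and settings added after seeing the data, a variance trend with robust estimation called 4 (Bhlhe40, Pdlim1, Sqstm1 and Zfp703), and a random block called 1 with the SD arrays together and 0 with them unpaired. Leaving out 1 array gave 1 to 10 genes with the block. The 10 came without ICR 4-week replicate 2, the array with high handling genes, and were all lower in SD: Pdlim1, Bhlhe40, Ccnl1, Cxcl10, Ier2, Klf6, Mir466d, Nfkbia, Nfkbiz and Zfp36. The cause was not tested. The test could not be run without the SD 4-week array.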
